A study of Mus musculus with 6 samples.

Results

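Cathepsins are proteases of lysosomes and cytotoxic granules, and their activity is held in check by dedicated inhibitor proteins. The family described here was chosen by gene name: the cathepsin genes Ctsb, Ctsc, Ctsd, Ctsh, Ctsl, Ctss, Ctsw and Ctsz, and the inhibitor genes Cst7 and Ctla2a. All 10 names matched exactly 1 row each among the 27763 gene rows of the deposited table. Poly(A) RNA of natural killer (NK) cells was sequenced, all from C57BL/6 animals that were wild type and 6-week-old, with spleen as the tissue. There were 3 libraries of cNK and 3 of DN NK, and no treatment, allele or agent is named for either group. What the letters of DN NK and cNK stand for, and how the cells were isolated, is not given in the labels, and the title of the series concerns immature NK cells of the spleen. Nothing states that replicates are different animals, and each p-value therefore reflects library-to-library spread, which may be technical.

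Most cathepsins are cysteine proteases that are made as inactive proenzymes and are activated by removal of a propeptide in an acidic compartment. Ctsc, known as dipeptidyl peptidase I, trims the inactive forms of granule serine proteases such as the granzymes and so switches them on in killer lymphocytes. Ctsw, also called lymphopain, is known for its restriction to NK cells and cytotoxic T cells. Cst7 encodes cystatin F, an inhibitor targeted to the endosomes and lysosomes of immune cells, where it restrains cysteine cathepsins, Ctsc among them. Ctla2a encodes a small protein that resembles the propeptide of cathepsin L-like enzymes and inhibits that class of enzyme.

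The cysteine cathepsins share a short active-site stretch around the catalytic cysteine, which sets them apart from Ctsd, an aspartic protease. A pattern of cysteine, glycine or lysine, then serine, alanine or cysteine, the catalytic cysteine, and tryptophan or tyrosine was searched for. That pattern allows the variants of these genes, so its matches locate the stretch and are not a test. The stretch was found in the coding sequence of each of the 7 cysteine cathepsins and not in that of Ctsd. It is printed here as 30 coding bases, 5′ to 3′ on the coding strand, from GENCODE release M21 on GRCm38, with the codon of the catalytic cysteine in capitals, to show what these members have in common.
Ctsb: tcctgcggctctTGTtgggcatttggggca
Ctsc: tcttgtggaagcTGCtactcatttgcctct
Ctsh: gcctgtggcagcTGCtggactttctctacc
Ctsl: cagtgcgggtctTGTtgggcgtttagcgca
Ctss: tcttgtggtgccTGCtgggctttcagtgct
Ctsw: agctgcaaatgcTGCtgggccatggcagct
Ctsz: tactgtggttccTGCtgggcccacggcagc

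These bases lie in coding exons. For Ctsw they are at chr19:5466453-5466482 in exon 5 of 10 on the minus strand, and for Ctsl at chr13:64367060-64367089 in exon 5 of 8 on the minus strand. For Ctss they are at chr3:95545336-95545365 in exon 5 of 8, for Ctsh at chr9:90064510-90064539 in exon 6 of 12, and for Ctsc at chr7:88308015-88308044 in exon 6 of 7, all on the plus strand. The Ctsz stretch is at chr2:174438181-174438210 in exon 2 of 6 on the minus strand. The Ctsb stretch crosses from exon 4 to exon 5 of 10, between chr14:63135705-63136418 on the plus strand.

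Levels are given as the deposited FPKM (fragments per kilobase of transcript, scaled to the size of the library), which can be compared between genes. Changes were tested with edgeR's quasi-likelihood test on the deposited estimated counts, with p-values adjusted (Benjamini-Hochberg) over 11690 rows that reached 1 FPKM in at least 3 of the 6 libraries. Estimated counts per library summed to 79798234 to 89526647, and about 3.76 of them stand for 1 read pair. Of the 10 members 9 were tested, and Ctsh lay below the filter. Compared with cNK, 6 of the 9 were lower in DN NK, 2 were higher and Ctsb did not pass an adjusted p of 0.05. Changes were common across the transcriptome: 61.7% of all tested rows passed, 30.8% higher and 30.9% lower. The number of members that changed, and the counts in the gene and marker lists below, are to be read against those shares. In 8 of the 9 the FPKM values of the groups did not overlap, as in 70.3% of all tested rows. The median log2 fold change of the 9 was -0.20, against -0.02 over all tested rows. The sizes were modest, since 3 members (Ctsl, Ctla2a and Ctsd) passed 1.5-fold and none reached 2-fold.

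**Figure D1:**
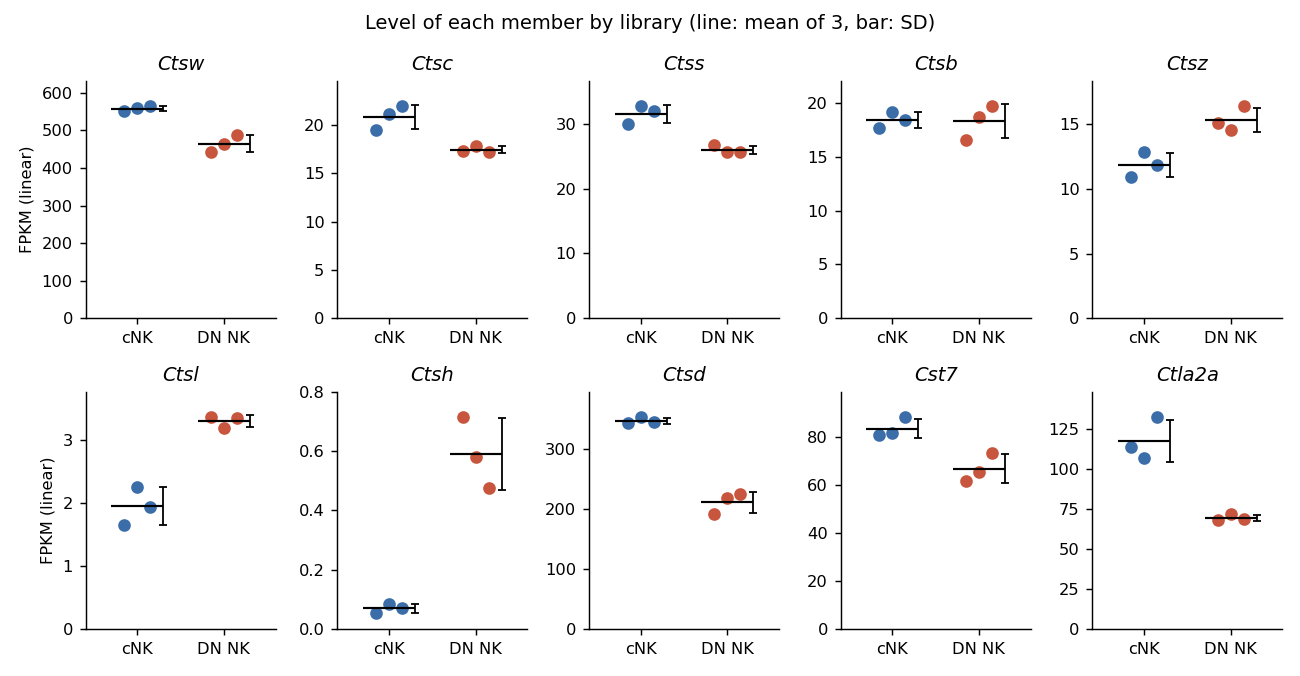
FPKM of each of the 10 members in each of the 6 libraries, on linear axes that start at 0, with 3 points per group, a line at the mean and a bar of 1 SD. Points of cNK (blue) and DN NK (red) do not overlap except for Ctsb, and Ctsl, Ctsz and Ctsh are the members that sit higher in DN NK.

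Ctsw was the most abundant member in both groups. Its FPKM was 552, 559 and 564 in cNK replicates 1, 2 and 3, and 442, 465 and 489 in DN NK replicates 1, 2 and 3. Every DN NK library was below every cNK library, but the distance was small beside the level. The means were 558 ± 6.04 and 465 ± 23.4 (SD, n = 3 each), with a log2 fold change of -0.20 (SE 0.046, edgeR adjusted p = 0.00456). By mean FPKM the gene stood at rank 88 of all rows in cNK and at rank 94 in DN NK. Of all tested rows 70.7% had a larger change in either direction. Ctsw (ENSMUSG00000024910) spans 5465240 to 5468498 of chromosome 19 (minus strand) in the deposited coordinates, which differ from its GENCODE M21 span.

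Ctsc, the activator of granule serine proteases, was expressed far below Ctsw. It read 19.5, 21.1 and 21.9 FPKM in the cNK libraries and 17.3, 17.9 and 17.2 FPKM in the DN NK libraries. The groups did not overlap, and the log2 fold change was -0.20 (SE 0.051, edgeR adjusted p = 0.00944). In a list of granule proteases with perforin and serglycin, which are not proteases, 8 genes were tested. Of these 6 were lower, Prf1 among them, 1 (Gzmc) was higher and Srgn did not pass, against 30.9% lower and 30.8% higher over all tested rows. The median log2 fold change of the list was -1.66. Gzmk, Gzma and Cma1 fell by 5.18, 2.69 and 1.96 on the log2 scale, in that order, and Gzmk passed the filter only through cNK. Ctsc (ENSMUSG00000030560) spans 88278085 to 88310888 on the plus strand of chromosome 7.

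Ctsd, the aspartic endopeptidase of lysosomes, showed one of the clearest differences of the family. Its level was 343, 352 and 344 FPKM in the cNK libraries and 191, 217 and 224 FPKM in the DN NK libraries. All DN NK values were well below all cNK values, with DN NK replicate 1 lowest. It was 1.58-fold lower in DN NK (log2 fold change -0.66, SE 0.058, edgeR adjusted p = 2.55e-05), at 211 ± 17.2 against 346 ± 5.11 FPKM (SD, n = 3 each). Of all tested rows 26.9% had a larger change. Ctsd (ENSMUSG00000007891) spans 142375911 to 142388038 of chromosome 7 (minus strand), and 808 of its 2351 exon bases are also annotated to the gene model Gm49369 on the same strand, which was not analysed here.

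The endopeptidases that are known for cutting antigens and the invariant chain in endosomes did not move as one. Ctss, whose product removes the last part of the invariant chain in antigen-presenting cells, read 30.02, 32.7 and 32.0 FPKM in cNK and 26.7, 25.6 and 25.7 FPKM in DN NK. The DN NK libraries were all lower, by a log2 fold change of -0.22 (SE 0.056, edgeR adjusted p = 0.00884). Ctsl, a broad endopeptidase, went the other way. It read 1.65, 2.26 and 1.94 FPKM in cNK and 3.37, 3.20 and 3.35 FPKM in DN NK, without overlap. The rise was 1.77-fold (log2 fold change 0.82, SE 0.11, edgeR adjusted p = 0.000248), the largest among the tested members, at a level that was low in both groups. Exons of Ctsl share 2137 of 6489 bases with other gene models, Gm47123 on the opposite strand and Gm49230 on the same strand, neither of which was analysed here. Ctss (ENSMUSG00000038642) spans 95526786 to 95556403 of chromosome 3 (plus strand), and Ctsl (ENSMUSG00000021477) 64359337 to 64370890 of chromosome 13 (minus strand).

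Ctsb, an endopeptidase that also removes dipeptides, was the member without a detected change. It read 17.7, 19.1 and 18.4 FPKM in cNK and 16.6, 18.7 and 19.7 FPKM in DN NK, and the ranges overlap. The log2 fold change was 0.05 (95% interval -0.09 to 0.19, edgeR adjusted p = 0.487), so the interval still holds a ratio between 0.941 and 1.14. Of its 6051 exon bases 774 overlap Fdft1 on the opposite strand, which the library kit cannot separate, and Fdft1 stood at 3.09 ± 0.229 FPKM in cNK and 2.26 ± 0.116 FPKM in DN NK (SD, n = 3 each). Ctsz, a carboxypeptidase, was higher in DN NK. It read 10.9, 12.8 and 11.8 FPKM in cNK and 15.1, 14.55 and 16.4 FPKM in DN NK, without overlap, and rose 1.35-fold (log2 fold change 0.43, SE 0.080, edgeR adjusted p = 0.00165). Only 10 of its 1441 exon bases overlap another gene, Nelfcd on the opposite strand. Ctsb (ENSMUSG00000021939) spans 63122462 to 63145923 of chromosome 14 (plus strand), and Ctsz (ENSMUSG00000016256) 174427493 to 174439039 of chromosome 2 (minus strand).

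Ctsh, an aminopeptidase of lysosomes, was scarcely detected. It read 0.0550, 0.0830 and 0.0698 FPKM in cNK and 0.715, 0.581 and 0.474 FPKM in DN NK, below 1 FPKM in every library. These values rest on 27, 39 and 32 estimated counts in cNK, or about 7.18 to 10.4 read pairs, and on 201 to 307 estimated counts in DN NK. In a fit of all 27763 rows without a filter, in which 15.3% of rows were higher in DN NK, Ctsh rose with a log2 fold change of 3.03 (SE 0.26, edgeR adjusted p = 2.19e-06). Even so, its DN NK level was the lowest of the 10 members. Ctsh (ENSMUSG00000032359) spans 90054152 to 90076089 of chromosome 9 (plus strand).

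Markers of other cell types were also higher in DN NK, as Ctsl, Ctsz and Ctsh were. Over all tested rows 30.8% were higher and 30.9% lower. The 10 B cell markers summed to 2.61 to 3.08 FPKM in cNK and to 53.8, 43.45 and 40.3 FPKM in DN NK replicates 1, 2 and 3, and all 8 that were tested rose, 7 of which passed the filter only through DN NK. Cd79a, the most abundant of them in DN NK, was at 0.292 ± 0.0328 FPKM in cNK and 11.8 ± 1.33 FPKM in DN NK (SD, n = 3 each). Cd22, the most abundant of them in cNK, was at 1.64 ± 0.213 and 10.05 ± 1.18 FPKM (SD, n = 3 each). Ctsh had the same order over the DN NK libraries as the B cell sum, while Ctsz was highest in replicate 3, where that sum was lowest. Ctsl was highest in replicate 1, as that sum was, but lowest in replicate 2. Its DN NK values lay close together, at 3.37, 3.20 and 3.35 FPKM. How many of all tested rows share such orders over the DN NK libraries was not counted. None of the 10 B cell markers was listed at 0 in all libraries of either group. Dendritic cell markers summed to 3.75 to 6.55 FPKM in cNK and 18.6 to 23.9 FPKM in DN NK over 8 listed genes, and the 3 that were tested, Ccr7, Batf3 and Zbtb46, rose and held nearly all of the sum. Batf3 passed the filter only through DN NK, the other 5 genes stayed below 1 FPKM in every library, and Clec10a was at 0 in all cNK libraries. The 15 listed markers of monocytes and macrophages, cells that are rich in cathepsins, summed to 3.29 to 4.35 FPKM in cNK and 5.16 to 5.44 FPKM in DN NK. Of these 13 stayed below 1 FPKM in every library, and Hmox1 held the largest part of the sum. T cell markers summed to 498 to 515 FPKM in cNK and 648 to 685 FPKM in DN NK, mostly from Trbc1 and Trbc2. That sum was high in both groups, and the cells it came from were not determined. All 7 tested T cell markers rose, Cd4 and Bcl11b having passed the filter only through DN NK. The part of all these markers in the results for Ctsl, Ctsz and Ctsh was not tested. In bulk RNA, fewer cells of a type and less RNA per cell cannot be told apart. The 10 listed NK cell markers were above 1 FPKM in both groups and summed to 4864 ± 79.9 FPKM in cNK and 2964 ± 193 FPKM in DN NK (SD, n = 3 each), and 9 of the 10 fell. Nkg7, a granule membrane protein of killer cells, was at 1480 ± 21.1 FPKM in cNK and 633 ± 46.0 FPKM in DN NK (SD, n = 3 each). Within DN NK the NK cell sum was lowest in replicate 1, as were Ctsw, Ctsd, Cst7 and Ctla2a among the members that fell. The Ctla2a values lay close together, at 68.0, 71.7 and 69.1 FPKM. Ctsb, which had no detected change, was lowest in replicate 1 as well. How many of all tested rows were lowest there was not counted. Ctsc was lowest in replicate 3, and Ctss was highest in replicate 1. The part of the NK cell markers in these falls was not tested.

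Neutrophil markers were listed at 0 in all cNK libraries and summed to at most 0.682 FPKM in DN NK, and basophil and mast cell markers summed to at most 0.414 FPKM in any library. Platelet markers summed to 1.03 to 1.86 FPKM in cNK and 0.473 to 1.47 FPKM in DN NK. Plasma cell markers (2 of 2 tested higher, Jchain only through DN NK), erythroid markers (4 of 5) and stromal markers (1 of 1) had DN NK sums of 41.8, 148 and 15.3 FPKM against 22.7, 111 and 11.6 FPKM in cNK. Of 5 tested markers of ILC2 and ILC3, 4 rose, 3 of which passed the filter only through DN NK, and Klrg1, which mature NK cells also express, fell.

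Both inhibitors were lower in DN NK. Cst7 read 80.8, 81.8 and 88.4 FPKM in cNK and 61.8, 65.7 and 73.4 FPKM in DN NK. The highest DN NK library was still below the lowest cNK library, and the gene fell by 0.26 on the log2 scale (SE 0.066, edgeR adjusted p = 0.00844). Ctla2a read 114, 107 and 133 FPKM in cNK and 68.0, 71.7 and 69.1 FPKM in DN NK. The DN NK libraries lay close together and far below the cNK libraries, which were spread more widely. Ctla2a fell by 0.70 on the log2 scale, a 1.62-fold lower level (SE 0.076, edgeR adjusted p = 8.68e-05), the largest fall among the 9 tested members. Cst7 (ENSMUSG00000068129) spans 150570415 to 150578944 of chromosome 2 (plus strand).

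Ctla2a has a close copy, Ctla2b, nearby on the same strand of chromosome 13, so the reads of the pair may not be fully separable. In the deposited coordinates Ctla2a spans 60934155 to 60936625 and Ctla2b 60895350 to 60897447, both on the minus strand. Their coding sequences were identical at 326 of 339 aligned bases (96.2%). The longest identical stretch of the main transcripts was 91 bases, and none of 1224 windows of 150 bases, the length of 1 read, in Ctla2a occurred whole in Ctla2b. The 60 coding bases below, from exon 2 of each gene, show how alike the copies are, with the base that differs in capitals.
Ctla2a: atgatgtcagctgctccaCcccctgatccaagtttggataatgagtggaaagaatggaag
Ctla2b: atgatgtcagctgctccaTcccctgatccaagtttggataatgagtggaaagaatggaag

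These stretches lie at chr13:60935985-60936044 and chr13:60896655-60896714 on GRCm38. Ctla2b itself read 63.8, 67.0 and 72.9 FPKM in cNK and 25.3, 24.0 and 23.0 FPKM in DN NK. It fell by 1.43 on the log2 scale (SE 0.066, edgeR adjusted p = 9.99e-07). The FPKM of both rows summed to 186 ± 17.1 over the cNK libraries and to 93.7 ± 1.78 over those of DN NK (SD, n = 3 each). Ctla2a made up 63.4% ± 1.59 of that sum in cNK and 74.3% ± 1.23 in DN NK. Exon overlaps with other gene models on the same strand, added over the models, came to 387 bases for Ctla2a (2108 exon bases). For Ctla2b they came to 1425 bases (1723 exon bases). Gm49391 overlaps both genes, Gm49393 Ctla2a and Gm49392 Ctla2b, and none of these models was analysed here. The single values of the pair are uncertain to the extent that reads were shared between the copies or with these models.

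**Figure D2:**
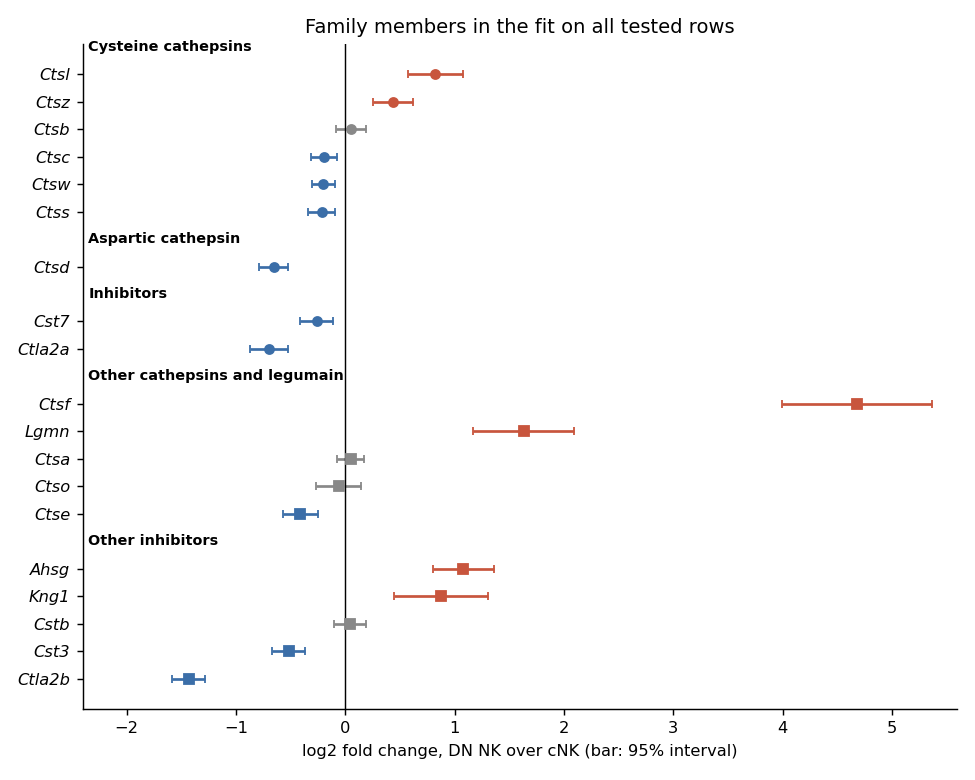
Log2 fold change of DN NK over cNK with its 95% interval for the 9 tested members (circles) and for 10 other family genes that reached 1 FPKM in a group (squares), with rows past an adjusted p of 0.05 in red (higher) or blue (lower) and others in grey. Ctsl and Ctsz lie to the right of 0, Ctsb spans it, and the other tested members lie to the left.

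The summed level of the 8 cathepsins was 975, 999.7 and 995 FPKM in the cNK libraries and 713, 762 and 796 FPKM in the DN NK libraries. The DN NK sum was thus 1.31-fold lower, at 757 ± 41.5 against 990 ± 13.3 FPKM (SD, n = 3 each). Ctsw and Ctsd together held 91.4% ± 0.327 of the sum in cNK and 89.3% ± 0.415 in DN NK. Between them the balance differed: Ctsd held 35.0% ± 0.338 in cNK and 27.8% ± 0.869 in DN NK, and Ctsw 56.4% ± 0.421 and 61.5% ± 0.502. The ratio of Ctsw to Ctsd was 1.59 to 1.64 in the cNK libraries and 2.14 to 2.31 in the DN NK libraries, without overlap. Without Ctsd, the 7 cysteine cathepsins summed to 643 ± 9.92 FPKM in cNK and 546 ± 24.9 FPKM in DN NK. The level of Cst7 per 100 FPKM of the 8 cathepsins was 8.29, 8.18 and 8.89 in cNK and 8.67, 8.62 and 9.23 in DN NK, and these ranges overlap. That sum includes the aspartic Ctsd, which fell more than Cst7, and no ratio of Cst7 to the 7 cysteine cathepsins was taken. No test was made on these sums and ratios. In the annotation columns of the table all 8 cathepsins carried the lysosome and apoptosis terms, and 3 of them, Ctsb, Ctsl and Ctss, the KEGG term for antigen processing and presentation. Those 3 were the member without a detected change, one that rose and one that fell.

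**Figure D3:**
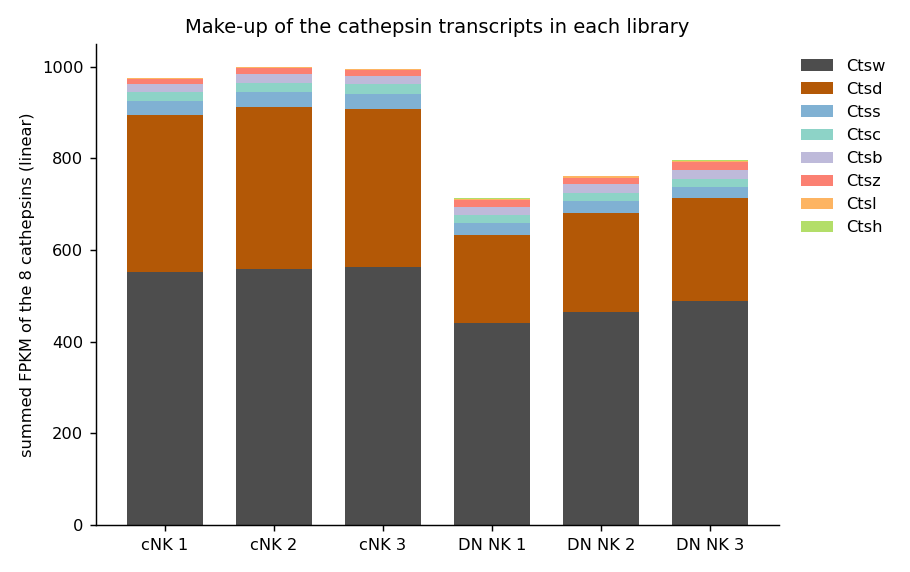
Stacked bars of the FPKM of the 8 cathepsins in each of the 6 libraries, on a linear axis from 0. The cNK bars reach 975 to 999.7 FPKM and the DN NK bars 713 to 796 FPKM, and most of the difference lies in the Ctsd and Ctsw segments.

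The order of levels was nearly the same in both groups. In cNK it ran from Ctsw through Ctsd, Ctla2a, Cst7, Ctss, Ctsc, Ctsb, Ctsz and Ctsl to Ctsh, and no neighbours in this order overlapped over the 3 libraries. In DN NK Ctsb and Ctsc changed places, at 18.3 ± 1.58 and 17.5 ± 0.377 FPKM (SD, n = 3 each), and their ranges overlapped. Ctla2a and Cst7 also overlapped in DN NK, at 69.6 ± 1.86 and 67.0 ± 5.91 FPKM (SD, n = 3 each).

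**Figure D4:**
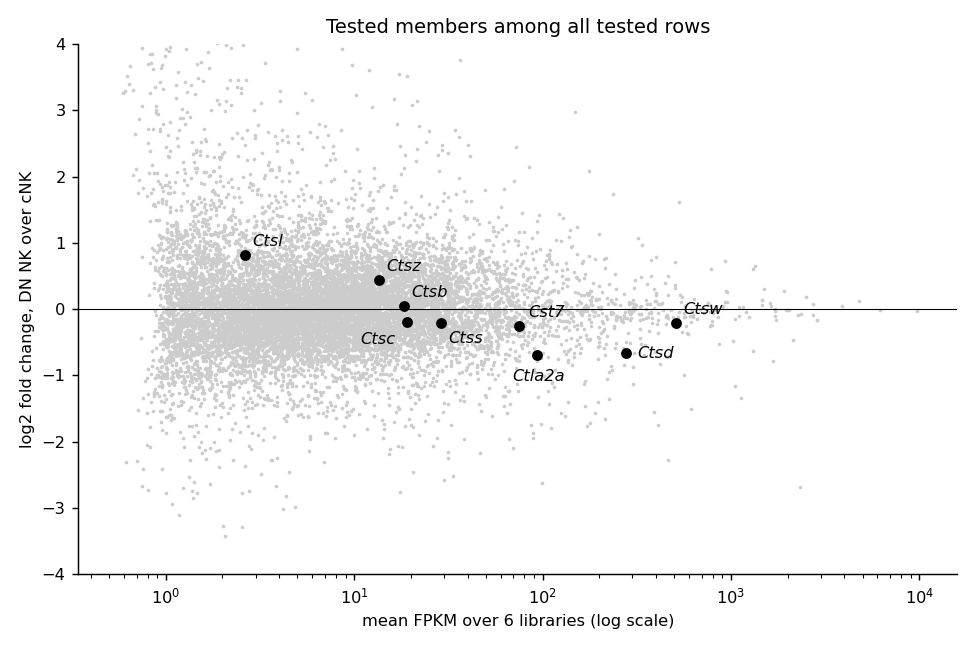
Mean FPKM over 6 libraries (log scale) against the log2 fold change of DN NK over cNK for all 11690 tested rows (grey) and the 9 tested members (black, labelled), with 139 rows beyond a log2 fold change of 4 in either direction not shown. The members reach from Ctsl at low level and positive change to Ctsw and Ctsd at high level and negative change.

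Other genes of the family were taken from a list of 17 further cathepsins and relatives, of which 7 had a row and 5 were tested. Of these 2 rose, 1 fell and 2 did not pass. Ctsf, a lysosomal cysteine cathepsin, read 0.122, 0.0813 and 0.0790 FPKM in cNK and 2.76, 2.71 and 1.68 FPKM in DN NK, where replicate 3 was lowest. Its log2 fold change was 4.68 (SE 0.30, edgeR adjusted p = 4.93e-06), from 16 to 25 estimated counts in cNK, and it passed the filter only through DN NK. Lgmn, the asparaginyl endopeptidase legumain that processes several cathepsins, was at 0.648 ± 0.0314 FPKM in cNK and 1.93 ± 0.465 FPKM in DN NK (SD, n = 3 each), a log2 fold change of 1.63, and also passed only through DN NK. Ctse, an aspartic protease of endosomes, fell by 0.41 on the log2 scale, from 8.11 ± 0.328 to 5.84 ± 0.411 FPKM. Ctsa, the protective protein of lysosomal glycosidases, had a log2 fold change of 0.05, and Ctso, a cysteine cathepsin, one of -0.06, neither past the threshold. The B cell and dendritic cell markers named above were higher in the libraries in which Ctsf and Lgmn were higher, and their part was not tested.

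Of 23 further cysteine protease inhibitors and relatives 8 had a row and 5 were tested, with 2 higher, 2 lower and 1 not past. Cst3, the secreted cystatin C, read 22.8, 24.3 and 22.9 FPKM in cNK and 14.8, 16.4 and 15.6 FPKM in DN NK. It fell by 0.52 on the log2 scale (SE 0.065, edgeR adjusted p = 0.000183), and Ctla2b was the other lower gene. Cstb, the cytosolic stefin B, was at 42.2 ± 0.923 FPKM in cNK and 41.7 ± 1.66 FPKM in DN NK (SD, n = 3 each), with a log2 fold change of 0.04 that did not pass. Ahsg and Kng1, which encode plasma proteins made mainly by the liver, rose by log2 fold changes of 1.08 and 0.88 to 6.16 and 1.86 FPKM.

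Lysosomal genes outside the family went both ways. Of 56 tested genes of lysosomal membrane proteins, hydrolases and the proton pump 19 rose, 17 fell and 20 did not pass. In share these counts are close to the 30.8% higher and 30.9% lower of all tested rows. The median log2 fold change of the list was -0.05, against -0.02 over all tested rows. The summed level was 1396 to 1412 FPKM in cNK and 1333 to 1375 FPKM in DN NK. Cd63, a membrane protein of late endosomes and granules, had the largest change, from 0.119 ± 0.0418 to 4.33 ± 0.186 FPKM (log2 fold change 5.21), but it rested on 33 to 62 estimated counts in cNK and passed the filter only through DN NK. Acp5 and Arsb, a phosphatase and a sulfatase, fell by 1.56 and 1.54. Of 14 tested lysosomal transcription factors and enzyme sorting genes 4 rose, 6 fell and 4 did not pass, beside the same shares of all tested rows. Igf2r, the receptor that carries mannose 6-phosphate tagged enzymes to lysosomes, fell by 0.98 on the log2 scale, from 19.2 ± 1.07 to 9.30 ± 0.152 FPKM. Lyst, which controls lysosome size, and Gga3, a sorting adaptor, rose by log2 fold changes of 0.78 and 0.76. Among RefSeq promoters on GRCm38, the E-box CACGTG, the core of the element read by the lysosomal factors Tfeb and Tfe3, was found within 250 bases before the start in Ctsd and Ctsl among the 7 members with an entry, and in 6.86% of 27025 genes. The motif reads the same on both strands. Tfeb fell by 0.63 on the log2 scale and Tfe3 rose by 0.63, both past the threshold. A link of either factor to Ctsd or Ctsl was not tested.

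All 10 tested genes of class II antigen processing rose in DN NK, of which H2-DMb2 passed the filter only through DN NK, and 9 of the 11 listed genes reached a mean of 1 FPKM in cNK. Their sum was 37.1 to 40.5 FPKM in cNK and 546, 472 and 474 FPKM in DN NK replicates 1, 2 and 3. H2-Aa and H2-Eb1, which encode class II chains, and Cd74, which encodes the invariant chain cut by Ctss, had log2 fold changes of 5.83, 4.90 and 5.69. Ctss, as given above, had a log2 fold change of -0.22 in the same libraries. B cell markers, whose cells express class II genes, were higher in these libraries too, and their part was not tested.

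The genes most like a member over the 6 libraries were sought for the member with the largest rise and that with the largest fall, among 6114 named rows with a mean of at least 5 FPKM. Likeness was the root mean square difference of log2(FPKM + 1) profiles, each centred on its mean. Patz1, Dpm1 and Eif2a were nearest to Ctsl, with differences of 0.045, 0.052 and 0.055. Ctsl itself lay below 5 FPKM, where adding 1 shrinks a change. Its change was 0.55 on this scale, against a log2 fold change of 0.82 in the edgeR fit. These neighbours had log2 fold changes of 0.68, 0.73 and 0.63 in the edgeR fit, in that order. Itgb1bp1, Anp32e and Cetn2 were nearest to Ctla2a, with differences of 0.031, 0.058 and 0.061. All 6 libraries and the difference between the groups enter these values, which are descriptions.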

How the data were processed

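The members and gene lists were chosen with earlier results of these data known. Per the file headers, the deposited table holds an FPKM value and a count per gene and library. HISAT, StringTie and edgeR, and the build GRCm38, are named in the submitters' processing notes, without versions or settings. Per the labels' protocols, poly(A) libraries (TruSeq RNA v2, which does not mark strand) were sequenced as paired reads of 150 bp. The deposited counts are treated as estimated counts made by the authors from coverage: in rows with 1 transcript, the product of FPKM, length and a constant, rounded up, matched exactly 89.2 to 91.3% of the values that were at most 30. About 3.76 of them make 1 read pair, an approximate unit.

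Tests used edgeR 4.0.16 in R 4.3.3 (TMM factors 0.973 to 1.03, robust quasi-likelihood, 2-sided, group as the only term). Tested were rows reaching 1 FPKM in 3 or more libraries. They held 99.3% of estimated counts. The fit was tested on simulated data. The standard error is the log2 fold change divided by the square root of F. The biological coefficient of variation was 13.5%. Named were all members, the other family genes with a group mean of at least 1 FPKM, per further list up to 3 genes that passed, taken by size of change, and the most abundant markers; Gzmc, Srgn, Prf1, Clec10a, Batf3, Cd4, Bcl11b, H2-DMb2, Tfeb and Tfe3 were named after their values were seen. Alternatives were DESeq2 1.42.0, limma 3.58.1 on log2(FPKM + 1) and log2(FPKM + 0.1), other scalings and filters, read-pair units, the replicate block and leaving out each library. Sequences come from GENCODE M21 transcripts. Protein sequences were not used here.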

Additional observations from a re-analysis of the deposited data

How the results depend on the processing

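Over 15 alternatives the 9 tested members gave 134 values, and all 134 kept the direction of a called change and their side of the threshold (Ctsl has no value with a mean of at least 5 FPKM, where it was not tested). The log2 fold change of Ctsd ranged from -0.74 to -0.61, of Ctla2a from -0.78 to -0.61, of Ctsl from 0.55 to 0.93 and of Ctsz from 0.35 to 0.49. The smaller falls reached adjusted p values as high as 0.0389 for Ctsc, 0.0341 for Cst7, 0.0328 for Ctss and 0.0176 for Ctsw. With a mean of at least 5 FPKM, where fewer genes are tested, 2278 rows were higher and 2336 lower over all genes, 1 member was higher, and no gene (0) was higher among the other cathepsins, the other inhibitors and the granule genes. With estimated counts scaled to library size in place of FPKM, the log2 ratio of the share of Ctsw in the cathepsin sum was 0.14 against 0.12. That scale weights genes by length. Upper quartile scaling moved the median log2 fold change of all rows from -0.02 to -0.10, with 3104 higher and 4373 lower. The lysosomal list, with 19 higher and 17 lower genes, had 16 and 22 without a filter, 14 and 22 with upper quartile scaling, and 16 and 23 in both limma fits.

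The labels give both groups the replicate numbers 1 to 3. Deviations from the group means correlated at 0.046, 0.0362 and 0.162 between same-numbered libraries, and at -0.0984 to 0.0565 between the others. With 3 libraries per group these values cannot decide whether the numbers pair libraries. Not every library correlated best with its own number. With the replicate block 3585 rows were higher and 3637 lower, 2 members higher and 6 lower. The number of libraries limits precision, and low rows such as Ctsh rest on few read pairs.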
